A study of Mus musculus with 8 samples.

Results

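The transcripts described here come from 42 genes best known from neurons, which build or regulate the microtubule and neurofilament cytoskeleton, bind RNA, coat synaptic vesicles or join cells to each other. They were taken as a list of gene symbols. Of these, 41 had a row under their own symbol among the 23284 symbols of the count tables, and 40 had enough counts to be tested. Map1b had no row under that symbol. Its older symbol in the RefSeq synonyms, Mtap1b, had one, which is described beside the list and not counted with it.

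RNA was sequenced from 8 libraries of endocrine cells sorted from the mouse pancreas at embryonic day 17, in a strain given as C56BL/J. In the KO libraries (replicates 8, 9, 17 and 24) both Neurod1 alleles were floxed, and in the Het libraries (replicates 6, 7, 13 and 19) a single allele was floxed and the other was wild type. All 8 carried Neurog3-Cre and the Rosa-Tomato reporter, so the Het cells are not wild type. Neurog3 drives the Cre in endocrine precursors, and the Tomato signal by which cells were sorted marks any cell with a history of that Cre. The labels do not say whether animals were pooled, nor that replicates are separate animals, so p-values measure the spread between these libraries. Values are CPM, read counts relative to the scaled library total, given for KO replicates 8, 9, 17 and 24 and Het replicates 6, 7, 13 and 19 in that order.

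Neurons and islet cells come from different germ layers, yet islet cells are known to use many of the same genes. Both cell types move secretory vesicles along microtubules, and both splice their transcripts with overlapping sets of RNA-binding proteins. Both make Neurod1, a transcription factor of the basic helix-loop-helix family, and such factors bind the E-box, CANNTG. The transcriptional repressor Rest keeps many neuronal genes, synapsins among them, silent in other tissues and is itself low in neurons and in differentiated islet cells.

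The deposited counts summed to 10.35 M to 16.08 M per library. Neurod1 itself was at 2.55, 12.9, 22.2 and 21.5 CPM in KO libraries, against 133, 138, 141 and 210 CPM in Het libraries, a log2 fold change of -3.40 (edgeR adjusted p = 0.0165). That call was lost without KO replicate 9, without any one of the Het libraries and with the Y-linked covariate (adjusted p = 0.0523 to 0.0732). KO replicate 8 stood apart from the other libraries. All 11 mesenchyme markers were highest there, and their summed level was 9799.7 CPM, against 343 to 497 CPM in the other KO libraries and 243 to 1202 CPM in Het libraries. Leukocyte markers summed to 372, 188, 13.3 and 33.6 CPM in KO libraries and to between 13.5 and 50.6 CPM in Het libraries. Summed islet markers, of which Ins1, Ins2 and Gcg were called lower, were at 19389.5 to 38462 CPM in KO libraries and at 59970.4 to 84549 CPM in Het libraries. Acinar markers summed to 12895 to 44668 CPM in KO libraries and 9928 to 31163 CPM in Het libraries, and duct markers to 557 to 689 CPM in KO and 517 to 657 CPM in Het. No gene of these mesenchyme, leukocyte, acinar and duct lists was called, and of the endothelial list only Cldn5 was, at 2.62 to 3.75 CPM in KO and 0.0772 to 0.371 CPM in Het. The Y-linked gene Ddx3y was at 88.4 to 146 CPM in KO replicates 8, 9 and 24 and at 112 CPM in Het replicate 7, and under 0.1 CPM elsewhere, while 6 of the members (Dcx, Syn1, L1cam, Nlgn3, Bex1 and Bex2) are X-linked. In bulk samples such as these, fewer cells of a type and less RNA per cell cannot be told apart.

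Several markers of the neurons and glia that grow into the pancreas were low. Chat, the acetylcholine-synthesising enzyme of cholinergic neurons, had no count in any library, Dbh had counts only in KO replicate 17 (0.226 CPM), and Phox2a did not pass 0.09 CPM. Th and Chrna3 of the same list were higher than these in every library. Their groups did not overlap, with Th lower and Chrna3 higher in KO, and their values are given under the last heading. The 10 autonomic and enteric neuron markers summed to 20.3 to 31.3 CPM in KO libraries and 26.6 to 39.2 CPM in Het libraries. Of these, 4 were tested and none was called in edgeR with all libraries. The 10 Schwann cell and neural crest markers summed to 124 to 158 CPM in KO libraries and 118 to 167 CPM in Het libraries, most of it Mbp, at 84.2 to 115 CPM in KO and 96.1 to 107 CPM in Het. Sox10, the defining factor of that lineage, ranged from 0.729 to 2.04 CPM in KO and from 0.507 to 4.82 CPM in Het. Of these 10 markers 8 were tested and none was called. The part of such cells in the results that follow was not tested beyond a fit with the Schwann markers as a covariate. It called none of the 40 members, and 0.34% of all genes lower, against 0.68% without the covariate. The fit without the covariate also called no member, so these calls cannot show the part of such cells.

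Levels between genes were compared per kilobase of exon, with exon lengths from GENCODE M21. The small adaptor protein Bex2, one of a family of X-linked genes abundant in neurons and endocrine cells, was the highest member on this scale, at 185 ± 50.2 CPM per kb in KO and 246 ± 19.5 CPM per kb in Het libraries (SD, n = 4 each). Bex1 followed at 37.0 ± 11.0 CPM per kb in KO and 45.1 ± 4.99 CPM per kb in Het. Celf3, Ncam1, Dcx, Rbfox2 and Kif1a came next, with means between 17.1 and 29.0 CPM per kb in KO and between 18.3 and 31.1 CPM per kb in Het. Neighbours from Ncam1 to Kif1a overlapped between libraries in both groups, while Celf3 was above Ncam1 in every Het library but not in every KO library. Nrxn2, at 0.0648 CPM per kb in KO and 0.129 CPM per kb in Het, was the lowest tested member by its mean over all 8 libraries. Mtap1b, not counted with the list and not drawn, averaged 116 ± 36.7 CPM per kb in KO and 94.9 ± 28.5 CPM per kb in Het. By these means it lay between Bex2 and Bex1. By CPM, 6 members averaged at least 100, 16 lay between 10 and 100, and 19 were under 10.

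**Figure D1:**
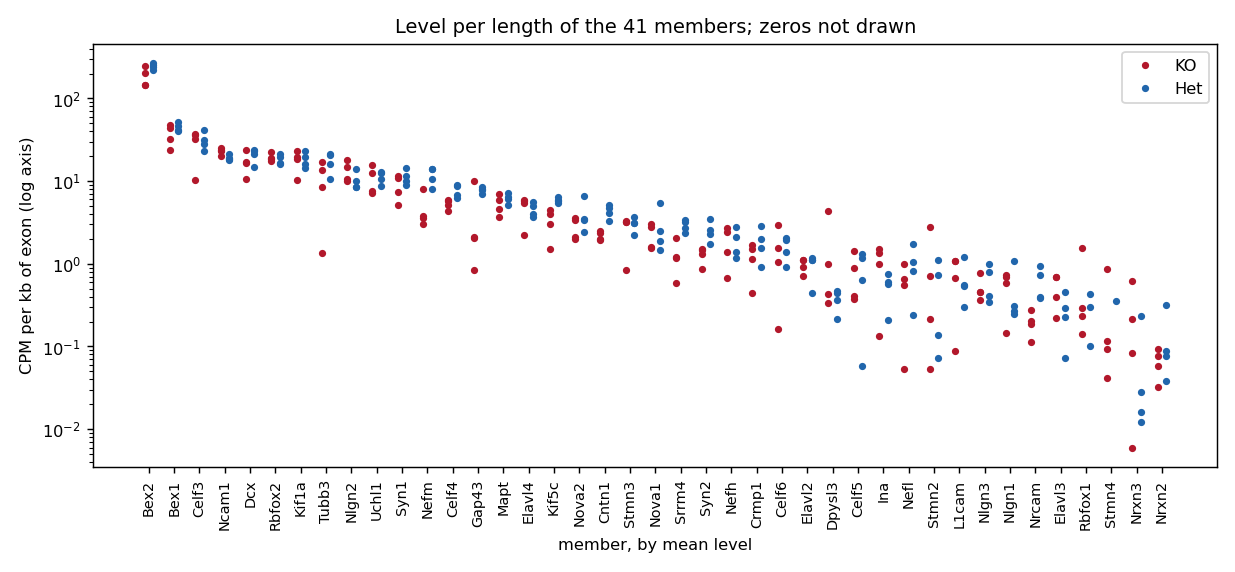
Level of each of the 41 members in CPM per kilobase of exon (log axis), 1 point per library, with KO libraries in red to the left of Het libraries in blue; libraries at 0 are not drawn. Bex2 lies above all others, and Nrxn2, Nrxn3 and Stmn4 lie at the bottom.

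No member passed the test of KO against Het. edgeR's quasi-likelihood test, adjusted over all 14116 genes tested, called 0 of 40 members lower and 0 higher at an adjusted p under 0.05, where 0.68% of all genes were called lower and 0.34% higher. Without adjustment, 8 members (20%) were lower at p under 0.05, against 5.8% of all genes, and 1 (2.5%) was higher, against 6.35%. DESeq2 called 4 of 39 members lower (Nefm, Srrm4, Nrcam and Cntn1), where it called 2.11% of all genes lower. It gave no adjusted p for Gap43, which is not among the 39. limma-voom with sample quality weights also called 4 lower (Nefm, Gap43, Srrm4 and Cntn1), against 2.15% of all genes. No setting called a member higher. The authors' deposited table lists 1 of the 41, Nefm, under an adjusted p of 0.05, where it lists 0.698% of its genes as lower and 0.283% as higher.

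The values leaned to the lower side. The members were chosen with earlier results of these data known, so their shares beside those of all genes are description and not a test. The log2 fold change of KO over Het was negative for 27 of 40 members (67.5%), against 46.6% of all genes tested, with a median of -0.22 beside 0.03 over all genes. It ranged from -1.67 for Nrcam to 2.05 for Dpysl3. A difference of 2-fold or more, whatever its p, was found on the lower side for 4 members (10%, against 3.13% of all genes) and on the higher side for 3 (7.5%, against 7.99%). KO and Het libraries did not overlap for 6 members, all lower in KO (15%, against 4.48% of all genes): Kif5c, Syn2, Celf4, Srrm4, Nrcam and Cntn1. No member had all KO libraries above all Het libraries, as 3.55% of all genes did. Summed over the members, the level was 1212, 1612, 1792 and 1748 CPM in KO libraries and 1856, 1766, 1839 and 1845 CPM in Het libraries.

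KO replicate 8 weighed on this lean. It was the lowest of the 8 libraries for 21 members (52.5%, against 20.9% of all genes) and the highest for 7 (17.5%, against 22.7%): Stmn2, Dpysl3, Gap43, Celf5, Rbfox1, Rbfox2 and Nrxn3. Without it, the median log2 fold change was -0.15, beside -0.00 over all genes, and 24 of 40 members were negative, against 50.6% of all genes in that fit. Then 7 members had KO libraries wholly below Het, Gap43 being added (7.62% of all genes), and 2, Ina and Ncam1, wholly above (6.91% of all genes). Gap43 was then the only member called, where 1.31% of all genes were called lower. With the mesenchyme markers as a covariate over all 8 libraries, 3 members (Nefm, Gap43 and Cntn1) were called lower, against 2.64% of all genes. Neither the lean nor the place of KO replicate 8 was particular to the members. Of the 11 islet markers, 10 had negative values, and KO replicate 8 was the lowest library for 10. Their median log2 fold change was -0.48, and -0.24 without that library. The precision also differed between members: the 95% interval of the log2 fold change lay within 2-fold either way for 14 and reached past it for 26.

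**Figure D2:**
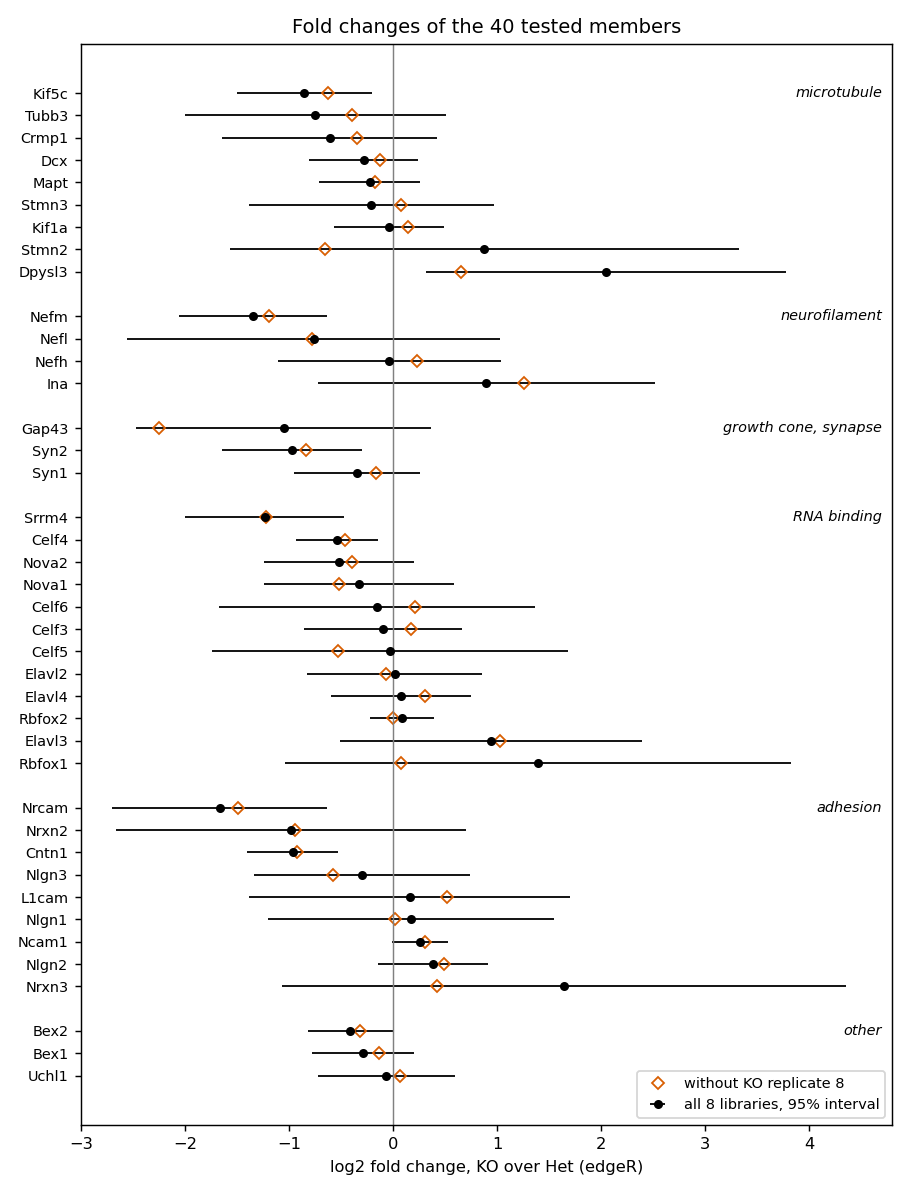
log2 fold change of KO over Het for the 40 tested members with its 95% interval from edgeR (black, 4 libraries each) and the value without KO replicate 8 (orange diamonds). Nrcam at -1.67 and Dpysl3 at 2.05 mark the ends, and the diamonds of Stmn2, Dpysl3, Rbfox1, Nrxn3 and Gap43 lie farthest from their black points.

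**Figure D3:**
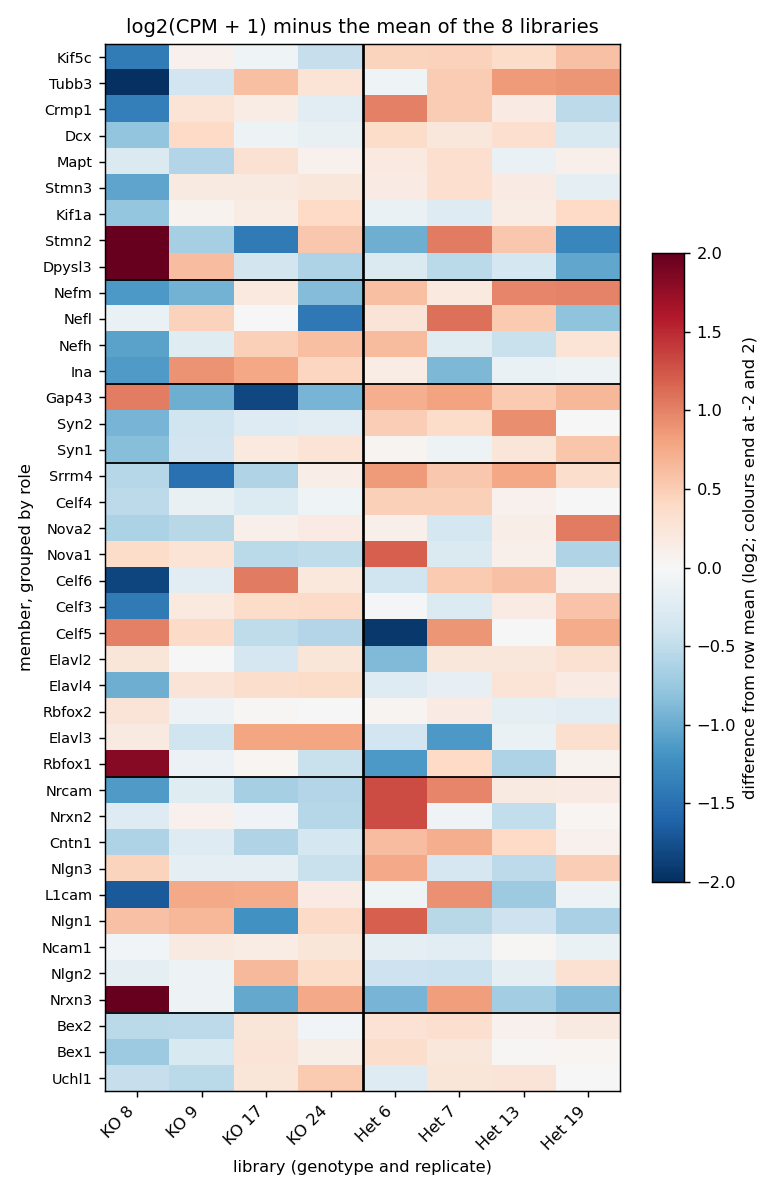
log2(CPM + 1) of the 40 tested members minus each member's mean over the 8 libraries, with KO replicates 8, 9, 17 and 24 left of Het replicates 6, 7, 13 and 19, grouped by role. The column of KO replicate 8 is the lowest for 21 members, and the Srrm4, Nrcam, Cntn1, Syn2, Kif5c and Celf4 lines are lower in every KO column than in every Het column.

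Among the 10 microtubule genes, 9 were tested and 7 of these had negative values, with a median log2 fold change of -0.23 (-0.17 without KO replicate 8). Their summed level was 492 ± 111 CPM in KO and 576 ± 28.9 CPM in Het libraries (SD, n = 4 each), and 546 ± 25.9 CPM in the 3 KO libraries other than replicate 8. Kif5c, a kinesin heavy chain that carries cargo along axons, had the smallest p of the group. It stood at 10.7, 32.0, 28.4 and 21.5 CPM in KO libraries, against 41.2, 41.8, 38.9 and 45.3 CPM in Het libraries. Every KO library lay below every Het library, and the KO libraries were spread more widely than the Het libraries. The log2 fold change was -0.85 (SE 0.29, 95% interval -1.50 to -0.20), and it missed the threshold (edgeR adjusted p = 0.264, and 0.148 without KO replicate 8). In the authors' deposited table its adjusted p was 0.220.

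The sequence just upstream of the Kif5c start is shown because Kif5c is among the 6 members whose libraries did not overlap. It was taken from the RefSeq promoter table (build GRCm38.p6, not the mm9 build of the counts) as the 250 bases before the start, 5′ to 3′ on the gene's strand, at chr2:49619036-49619285 (+), with each E-box (CANNTG, found on both strands at once since the consensus is its own reverse complement) in capitals.
Kif5c: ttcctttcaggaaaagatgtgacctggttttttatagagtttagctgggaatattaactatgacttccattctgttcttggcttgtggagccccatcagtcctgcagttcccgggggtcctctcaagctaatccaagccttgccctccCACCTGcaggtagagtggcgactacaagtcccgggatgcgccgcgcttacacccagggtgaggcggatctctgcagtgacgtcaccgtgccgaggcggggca
Of all 32851 RefSeq windows of this length, 66.2% hold a CANNTG. Of the 41 members 28 were in the table, with 58 windows, some of them overlapping, and 36 of the 58 (62.1%) held one. A narrower form, CAGATG, searched on both strands and counted within CANNTG too, was in 14.4% of all windows and in 12 of the members' 58 (20.7%), in Bex2, Celf3, Elavl4, L1cam, Srrm4, Stmn3 and Syn2. CAGCTG, also a form of CANNTG, was in 13% of all windows and in 13 of the 58 (22.4%). A match is a description, not a bound site.

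Dcx, the doublecortin that stiffens microtubules in migrating neurons, was the microtubule member with the most counts. It stood at 134, 304, 216 and 209.5 CPM in KO libraries, against 298, 273, 292 and 188 CPM in Het libraries. The groups overlapped, with both the highest and the lowest library in KO. KO over Het gave a log2 fold change of -0.28 (SE 0.24, edgeR adjusted p = 0.671). The kinesin Kif1a, which moves dense-core and synaptic vesicle precursors, was alike in level at 166 ± 50.5 CPM in KO and 171 ± 35.0 CPM in Het (log2 fold change -0.04), and the sign of its value changed with the setting. Tau, encoded by Mapt, was at 39.7 ± 11.0 CPM in KO and 46.5 ± 6.50 CPM in Het (log2 fold change -0.23). The neuronal beta-tubulin gene Tubb3 was at 2.55, 15.7, 32.2 and 25.3 CPM in KO libraries, against 19.6, 30.2, 38.3 and 39.3 CPM in Het libraries. KO replicate 8 was far below the rest, and the other KO libraries overlapped with Het. Its log2 fold change was -0.75 with all libraries and -0.39 without that one (edgeR adjusted p = 0.633 and 0.602).

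Dpysl3, a collapsin response mediator protein of growing axons, was the one member higher in KO at an unadjusted p under 0.05. It is described here after its values were seen. It stood at 29.1, 6.62, 2.87 and 2.25 CPM in KO libraries, against 3.09, 2.41, 2.91 and 1.42 CPM in Het libraries. The mean of 10.2 ± 12.7 CPM in KO, against 2.46 ± 0.75 CPM in Het, rested on KO replicate 8, the library with the mesenchyme markers. Without it KO libraries averaged 3.91 ± 2.37 CPM (n = 3), and the log2 fold change was 0.65 instead of 2.05 (edgeR adjusted p = 0.670 and 0.325). The part of mesenchyme in the Dpysl3 level was not tested beyond these values and the fit with mesenchyme markers as a covariate. Neither that fit nor the main one called Dpysl3. Its relative Crmp1 was at 8.47 ± 3.90 CPM in KO and 12.9 ± 5.89 CPM in Het (log2 fold change -0.61). The stathmins, which take microtubules apart, were scarce: Stmn3 averaged 2.98 ± 1.36 CPM in KO and 3.44 ± 0.667 CPM in Het, and Stmn2 averaged 5.28 ± 7.05 CPM in KO, with 15.6 CPM in replicate 8, and 2.86 ± 2.76 CPM in Het. Stmn4, the untested member, had 23, 1, 3 and 2 counts in KO libraries and 0, 11, 0 and 0 counts in Het libraries.

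Mtap1b, the older symbol of the microtubule-associated protein gene Map1b, was far above the tested microtubule members at 993, 1925, 2103 and 2313 CPM in KO libraries, against 999, 1261, 1786 and 1969 CPM in Het libraries. The groups overlapped, with KO replicate 8 and Het replicate 6 lowest and at nearly the same level. The log2 fold change was 0.29 (SE 0.28, edgeR adjusted p = 0.730), and 0.48 without KO replicate 8.

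Of the 4 neurofilament genes, which form the intermediate filaments of axons, Nefm carried most of the counts. Summed, the group was at 39.0 ± 17 CPM in KO and 80.0 ± 15.6 CPM in Het libraries (SD, n = 4 each). Nefm, the medium chain, stood at 17.7, 20.5, 46.5 and 21.7 CPM in KO libraries, against 61.9, 46.5, 80.3 and 81.7 CPM in Het libraries. KO replicate 17 (46.53 CPM) lay just above Het replicate 7 (46.49 CPM), and the other 3 KO libraries lay below all Het libraries. On the log2 scale the difference was -1.34 (SE 0.32, 95% interval -2.06 to -0.63). Its edgeR adjusted p was 0.0970 with all libraries and 0.0231 without KO replicate 17, where the log2 fold change was -1.78 and 0.256% of all genes were called lower. Over all single libraries left out, the adjusted p ran from 0.0231 to 0.261. The authors' deposited table gives a log2 fold change of -1.35 and an adjusted p of 0.0167.

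The other neurofilament genes were low. Nefl, the light chain, was at 1.90 ± 1.31 CPM in KO and 3.23 ± 2.07 CPM in Het. The exons of Nefl and Nefm overlap on opposite strands over 1108 bp in GENCODE M21, which is 32.8% of Nefl and 19.2% of Nefm. The amplification kit keeps no strand, so reads there cannot be told apart. The heavy chain Nefh averaged 7.22 ± 3.76 CPM in KO and 7.40 ± 2.88 CPM in Het. Ina, encoding alpha-internexin, averaged 3.23 ± 1.98 CPM in KO and 1.73 ± 0.754 CPM in Het (log2 fold change 0.90, edgeR adjusted p = 0.663).

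The 3 growth cone and synapse genes were all on the lower side, with a summed level of 43.8 ± 7.60 CPM in KO and 66.6 ± 6.59 CPM in Het libraries. Syn2, a synapsin that tethers vesicles to the cytoskeleton, stood at 6.05, 9.17, 10.3 and 10.6 CPM in KO libraries, against 17.9, 16.3, 24.4 and 12.3 CPM in Het libraries. All KO libraries lay below all Het libraries, the nearest pair 10.6 and 12.3 CPM. The log2 fold change was -0.97 (SE 0.30, 95% interval -1.65 to -0.30), and it missed the threshold (edgeR adjusted p = 0.211, and 0.198 without KO replicate 8). Syn1, the X-linked synapsin, stood at 17.1, 24.1, 36.3 and 38.5 CPM in KO libraries, against 33.1, 29.5, 37.7 and 47.2 CPM in Het libraries. Its groups overlapped, and its log2 fold change was -0.35 (SE 0.27, edgeR adjusted p = 0.653).

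Both synapsin promoters are shown, Syn2 for its non-overlapping libraries and Syn1 because it holds TTCAGCACC, the left part of the element that Rest binds. Coordinates are of GRCm38.p6. The Syn2 windows, from a pair of starts, lie at chr6:115134652-115134901 (+) and chr6:115238744-115238993 (+), with each CANNTG in capitals. The Syn1 window lies at chrX:20920919-20921168 (-), with TTCAGCACC in capitals.
Syn2, upstream start: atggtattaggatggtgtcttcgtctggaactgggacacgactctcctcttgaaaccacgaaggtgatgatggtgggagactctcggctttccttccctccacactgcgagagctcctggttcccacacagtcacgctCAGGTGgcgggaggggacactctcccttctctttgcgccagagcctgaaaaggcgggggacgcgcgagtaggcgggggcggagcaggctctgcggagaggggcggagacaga
Syn2, downstream start: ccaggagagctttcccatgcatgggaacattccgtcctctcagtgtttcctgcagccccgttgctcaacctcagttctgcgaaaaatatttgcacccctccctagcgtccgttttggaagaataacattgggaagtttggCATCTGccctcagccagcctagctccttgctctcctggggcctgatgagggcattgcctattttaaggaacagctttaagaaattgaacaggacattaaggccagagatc
Syn1: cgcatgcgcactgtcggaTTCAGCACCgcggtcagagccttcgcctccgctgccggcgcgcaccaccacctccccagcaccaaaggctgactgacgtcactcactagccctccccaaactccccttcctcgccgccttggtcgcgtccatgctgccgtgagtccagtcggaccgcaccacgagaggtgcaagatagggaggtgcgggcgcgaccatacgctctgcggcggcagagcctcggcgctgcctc
TTCAGCACC, searched on both strands, was in 0.301% of all windows and in 2 of the members' 58, those of Syn1 and Nlgn1. GGACAG, the right part of the element, was in 18.7% of all windows and in 7 of the 58 (12.1%). The left and right parts joined by NN were in 0.00913% of all windows and in 0 of the 58. These searches took exact matches only, and the Syn1 window has GGTCAG in place of GGACAG at that spacing. No match says only that these letters are not in the 250 bases searched. Rest itself stood at 39.999, 18.2, 7.77 and 7.28 CPM in KO libraries, against 12.6, 21.4, 4.68 and 7.10 CPM in Het libraries (log2 fold change 0.67, edgeR adjusted p = 0.701). Its highest value was in KO replicate 8, and without that library its log2 fold change was -0.07.

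Gap43, a growth-cone membrane protein of extending axons, depended on a single library. It stood at 15.4, 3.11, 1.28 and 3.23 CPM in KO libraries, against 12.4, 13.04, 10.6 and 11.9 CPM in Het libraries. KO replicate 8 exceeded all Het libraries, whereas KO replicates 9, 17 and 24 were below all of them. With all libraries the log2 fold change was -1.05 (SE 0.64, 95% interval -2.47 to 0.37, edgeR adjusted p = 0.544). Without KO replicate 8 the KO mean was 2.54 ± 1.09 CPM (n = 3), against 12.0 ± 1.03 CPM in Het (n = 4), and the log2 fold change of -2.25 (SE 0.42) was called lower (edgeR adjusted p = 0.0169). Gap43 is also made by Schwann cells and growing nerve fibres. Sox10 averaged 1.56 ± 0.571 CPM in KO and 3.23 ± 1.93 CPM in Het (log2 fold change -1.06, edgeR adjusted p = 0.578), and the part of such cells was not tested beyond the Schwann covariate. In edgeR over all libraries, Gap43 was called neither with that covariate nor with no covariate, so those calls cannot show their part. The weighted limma-voom fit and the edgeR fit with the mesenchyme covariate, both over all libraries, did call Gap43 lower.

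The 12 RNA-binding genes were close to even between the groups. All were tested, 7 had negative values, and the median log2 fold change was -0.06 (-0.04 without KO replicate 8). Their summed level was 466 ± 66.8 CPM in KO and 514 ± 31.7 CPM in Het libraries. Srrm4, the splicing activator of neuronal microexons, which islet cells use as well, had the smallest p of the group. It stood at 10.4, 5.03, 10.2 and 17.6 CPM in KO libraries, against 29.4, 23.7, 27.8 and 20.7 CPM in Het libraries. Every KO library lay below every Het library. This gave a log2 fold change of -1.23 (SE 0.35, 95% interval -1.998 to -0.47). It missed the threshold in edgeR (adjusted p = 0.159, and 0.102 to 0.358 with any single library left out) and in the authors' deposited table (adjusted p 0.0603).

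The Srrm4 window is shown for the same reason as that of Kif5c, and it also holds the narrower CAGATG form. It lies at chr5:116591818-116592067 (-) of GRCm38.p6, with each CANNTG in capitals.
Srrm4: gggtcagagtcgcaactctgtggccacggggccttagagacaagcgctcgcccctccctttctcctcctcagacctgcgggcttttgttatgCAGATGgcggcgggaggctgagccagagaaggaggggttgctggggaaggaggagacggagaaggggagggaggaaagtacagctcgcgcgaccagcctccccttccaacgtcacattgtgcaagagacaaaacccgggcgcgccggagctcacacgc
Its exons share only 68 bp with an antisense transcript in GENCODE M21, 0.784% of their length, and no 100-base stretch with another gene's transcripts.

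Celf3, a splicing and stability regulator of the CELF family, was the most abundant RNA-binding member. It stood at 57.2, 177, 199 and 202 CPM in KO libraries, against 152, 128, 173 and 228 CPM in Het libraries. KO replicate 8 was far below the others, and the remaining KO libraries lay within the Het range. The log2 fold change was -0.10 with all libraries (SE 0.34, edgeR adjusted p = 0.937) and 0.17 without that one. Its relative Celf4, described after its values were seen, stood at 37.4, 48.7, 44.6 and 50.9 CPM in KO libraries, against 76.2, 75.4, 57.9 and 53.7 CPM in Het libraries. Those groups did not overlap, the nearest pair being 50.9 and 53.7 CPM. Its log2 fold change was -0.54 (SE 0.18, 95% interval -0.93 to -0.14, edgeR adjusted p = 0.238). Celf5 averaged 5.19 ± 3.34 CPM in KO and 5.29 ± 3.80 CPM in Het, and Celf6 averaged 5.17 ± 4.23 CPM in KO and 5.75 ± 1.94 CPM in Het.

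The other splicing regulators showed no difference beyond their spread. Rbfox2, the broadly expressed Rbfox factor, had one of the narrowest intervals of the list: 158 ± 17.9 CPM in KO and 149 ± 18.997 CPM in Het, a log2 fold change of 0.09 (95% interval -0.22 to 0.39). Its relative Rbfox1 was at 2.43 ± 2.91 CPM in KO and 0.919 ± 0.861 CPM in Het, with 6.78 CPM in KO replicate 8. The log2 fold change of Rbfox1 was 1.39 (SE 1.10), and 0.08 without that library. Of the Nova splicing factors, Nova1 averaged 19.7 ± 6.81 CPM in KO and 24.7 ± 15.8 CPM in Het, and Nova2 averaged 23.0 ± 6.86 CPM in KO and 33.0 ± 15.1 CPM in Het. In GENCODE M21 a noncoding gene covers 31.7% of the Nova2 exons on the other strand. Of the Hu proteins, which stabilise AU-rich transcripts, Elavl4 averaged 26.0 ± 9.48 CPM in KO and 24.7 ± 4.60 CPM in Het. Elavl2 averaged 8.03 ± 1.63 CPM in KO and 7.96 ± 2.85 CPM in Het, and Elavl3 averaged 3.45 ± 1.59 CPM in KO and 1.803 ± 1.10 CPM in Het.

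Adhesion genes went both ways. Of 9 members, 4 had negative values, and the summed level was 322 ± 31.0 CPM in KO and 296 ± 7.22 CPM in Het libraries. Cntn1, a GPI-anchored contactin of axons and nodes, had the smallest p of all members. It stood at 18.4, 23.9, 18.7 and 22.3 CPM in KO libraries, against 44.8, 48.7, 38.4 and 30.7 CPM in Het libraries. All KO libraries lay below all Het libraries, and no KO library, replicate 8 included, stood apart. The means were 20.8 ± 2.68 CPM in KO and 40.6 ± 7.85 CPM in Het (SD, n = 4 each), a log2 fold change of -0.97 (SE 0.20, 95% interval -1.41 to -0.53). At an edgeR adjusted p of 0.0524 it missed the threshold narrowly, and leaving out any single library gave 0.0533 to 0.170. It was called lower with the filter of 2 CPM in 4 libraries, where 0.853% of all genes were, as well as in DESeq2, in the weighted limma-voom fit and with the mesenchyme covariate. The authors' deposited table gives an adjusted p of 0.0759.

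Nrcam, an L1-family adhesion molecule that clusters channels at axon nodes, had the lowest log2 fold change of the list. It stood at 1.53, 3.67, 2.49 and 2.70 CPM in KO libraries, against 12.7, 9.89, 5.30 and 5.17 CPM in Het libraries. The groups did not overlap, and Het replicates 6 and 7 were well above the other Het libraries. KO over Het came to a log2 fold change of -1.67 (SE 0.47, 95% interval -2.70 to -0.63), and it missed the threshold (edgeR adjusted p = 0.159, and 0.148 to 0.341 with any single library left out).

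The windows of these adhesion genes are shown as the remaining non-overlapping members whose sequence is printed here. Cntn1 has 3 starts in the table, of which the most upstream is at chr15:92050915-92051164 (+), and Nrcam lies at chr12:44328635-44328884 (+), both of GRCm38.p6. Each CANNTG is in capitals. The Cntn1 window holds none.
Cntn1: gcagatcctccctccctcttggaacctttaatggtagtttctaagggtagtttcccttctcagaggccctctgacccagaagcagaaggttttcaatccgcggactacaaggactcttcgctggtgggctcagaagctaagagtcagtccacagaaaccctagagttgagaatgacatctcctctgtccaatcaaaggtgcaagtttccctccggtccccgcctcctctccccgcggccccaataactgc
Nrcam: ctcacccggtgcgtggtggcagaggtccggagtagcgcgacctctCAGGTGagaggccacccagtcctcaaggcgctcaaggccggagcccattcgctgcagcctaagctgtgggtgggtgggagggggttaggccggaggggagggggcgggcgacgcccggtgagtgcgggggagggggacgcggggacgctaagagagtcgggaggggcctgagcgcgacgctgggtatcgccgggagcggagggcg

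Ncam1, the neural cell adhesion molecule, which is present on islet cells and directs their sorting in the mouse islet, was the adhesion member with the most counts. It stood at 175, 206, 202 and 216 CPM in KO libraries, against 162, 157, 185 and 166 CPM in Het libraries. Only KO replicate 8 lay below the top Het library. In edgeR the log2 fold change was 0.25 (SE 0.12, 95% interval -0.02 to 0.52, edgeR adjusted p = 0.435), and 0.30 without KO replicate 8 (adjusted p = 0.282). Nlgn2, the neuroligin of inhibitory synapses, also present in beta cells, averaged 77.7 ± 21.9 CPM in KO and 59.6 ± 15.5 CPM in Het (log2 fold change 0.38, edgeR adjusted p = 0.552). The other adhesion members were under 10 CPM. L1cam averaged 5.37 ± 3.45 CPM in KO and 4.79 ± 2.91 CPM in Het, and Nlgn1 averaged 7.25 ± 3.62 CPM in KO and 6.44 ± 5.45 CPM in Het. Nlgn3 averaged 4.75 ± 1.64 CPM in KO and 5.87 ± 2.86 CPM in Het, though another transcript covers 41.2% of its exons in GENCODE M21. The presynaptic neurexin genes were lowest: Nrxn2 averaged 0.896 ± 0.355 CPM in KO and 1.78 ± 1.72 CPM in Het, and Nrxn3 averaged 2.92 ± 3.47 CPM in KO and 0.904 ± 1.34 CPM in Het.

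The remaining 3 members are cytoplasmic proteins abundant in neurons, and all had negative values. Bex2 stood at 129.9, 132, 225 and 182 CPM in KO libraries, against 232, 241, 201 and 215 CPM in Het libraries. The groups overlapped through KO replicate 17. The log2 fold change was -0.41 (SE 0.18, 95% interval -0.82 to -0.00, edgeR adjusted p = 0.409). Bex1 averaged 43.8 ± 12.99 CPM in KO and 53.5 ± 5.91 CPM in Het (log2 fold change -0.29, adjusted p = 0.644). Bex genes share some sequence: in GENCODE M21, 21.1% of the 100-base stretches of Bex1 and 8.71% of those of Bex2 also occur in another gene. Bex1 shared 153 stretches with Bex4 and 9 with Bex2, and Bex2 shared 61 with Bex3 and 9 with Bex1. The split of reads from those stretches is uncertain. Uchl1, a ubiquitin hydrolase of neurons and endocrine cells, averaged 17.5 ± 6.69 CPM in KO and 18.3 ± 3.11 CPM in Het (log2 fold change -0.06).

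**Figure D4:**
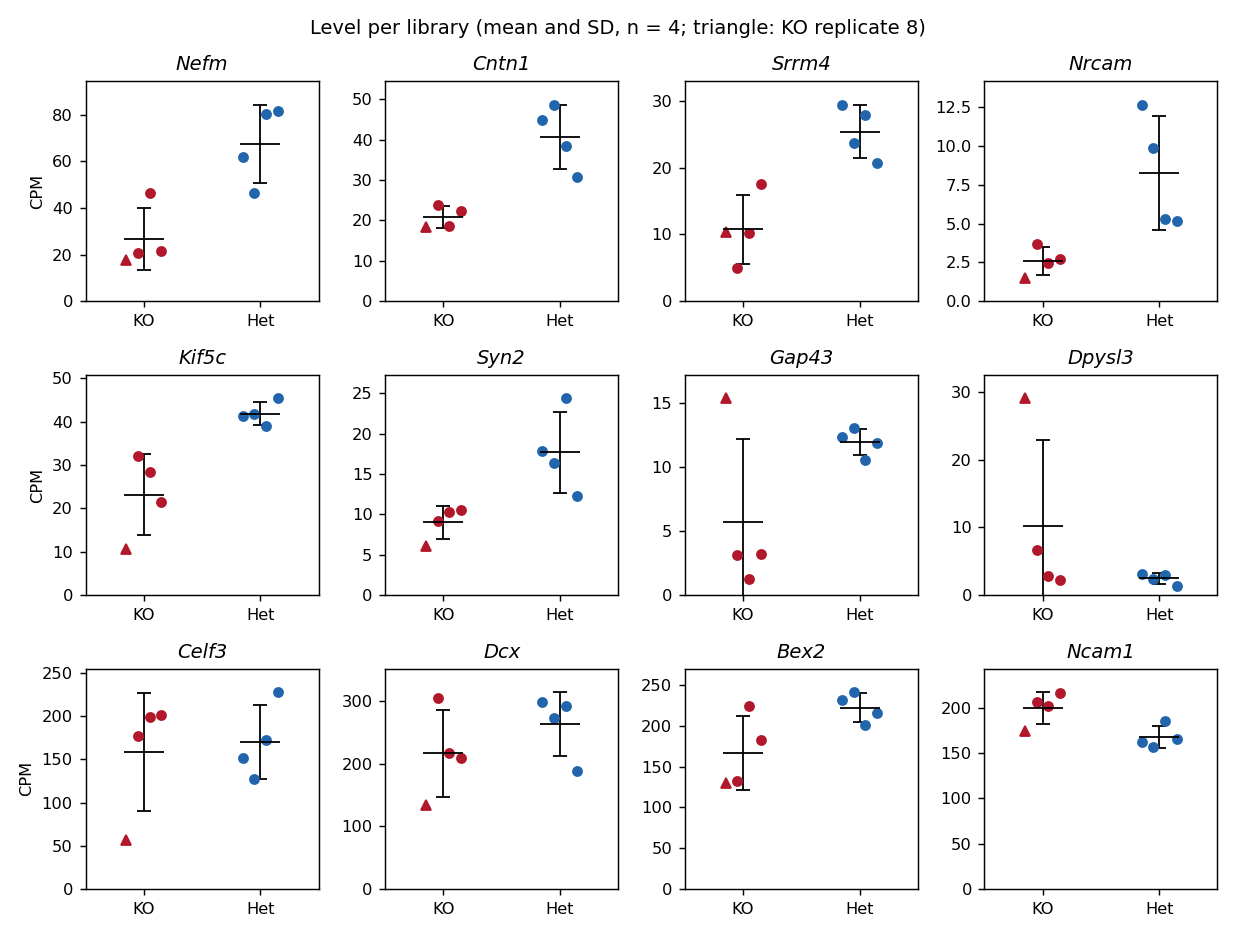
CPM of 12 members in each library (linear axes from 0), KO left and Het right, with the mean and SD (n = 4) and KO replicate 8 as a triangle; the KO bars of Gap43 and Dpysl3 are cut at 0. Cntn1, Srrm4, Nrcam, Kif5c and Syn2 show no overlap between the groups, and the triangle stands apart for Gap43, Dpysl3 and Celf3.

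Relatives of the members outside the list gave no calls. Of 33 family relatives (other tubulins, kinesins, CELF, contactin and neurexin genes and the like), 30 had a row and 29 were tested. Of these 15 had negative values, with a median log2 fold change of -0.09, and edgeR called 0. The smallest p was that of the tubulin Tubb4b, at 69.6, 93.8, 109 and 78.5 CPM in KO libraries, against 118, 118, 131 and 103.7 CPM in Het libraries (log2 fold change -0.42, edgeR adjusted p = 0.328). Its groups overlapped through KO replicate 17. Of 16 regulators of splicing and of Rest-dependent silencing, 15 had a row and 14 were tested, with 4 negative values, a median of 0.08 and 0 calls. The smallest p there was that of Ptbp2, the neuronal polypyrimidine-tract repressor of splicing, at 69.1, 75.9, 72.5 and 65.7 CPM in KO libraries, against 41.6, 48.3, 58.4 and 58.6 CPM in Het libraries. All KO libraries lay above all Het libraries, with a log2 fold change of 0.45 (SE 0.16, edgeR adjusted p = 0.268).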

How the data were processed

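The deposited tables, 1 per library, hold raw counts of reads for each gene symbol, per the file headers and their values. Per the labels' protocols, 2.315 ng of RNA per sample was amplified with the NuGEN Ovation V2 kit, which keeps no strand. The submitters' processing notes name TopHat2 2.1.0, Cufflinks 2.0.2, bcl2fastq 1.8.4, DESeq and the build mm9. Which tool counted reads, and on which annotation, is not given in the sources used here. A comparison table by the authors holds a mean normalized signal per group, its fold change (the ratio of KO to Het), the log2 of it, and p-values and adjusted p-values, per the file headers.

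In R 4.3.3, genes passing edgeR 4.0.16's filterByExpr (minimum count 10, minimum total 15) were scaled by TMM and compared by the quasi-likelihood F test, two-sided, KO over Het, with Benjamini-Hochberg adjustment over all genes tested. Calls are genes with an adjusted p under 0.05. The SE is the absolute log2 fold change over the square root of F. DESeq2 1.42.0, limma-voom 3.58.1 with quality weights, other scalings and filters, covariates and each library left out in turn were alternatives; the Schwann marker covariate was chosen after seeing the data. Simulated counts were used to check the fits. They had less spread between libraries than these data, and changes were planted only in genes with many counts. The check therefore does not show what the fits find among members with few reads. The members, gene lists and tests were chosen with earlier results of these data known. Values in every library were given for the members called, for those with the smallest p or the most counts in each role, and for those called by DESeq2 or with a library left out. Counts cover amplified copies, so intervals cover the spread between libraries and not the molecules before amplification. At 10.35 M to 16.08 M counts, members under 10 CPM rest on few reads. Promoter windows come from RefSeq on GRCm38.p6, exon lengths and overlaps from GENCODE M21, and both differ from the build of the counts.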

Additional observations from a re-analysis of the deposited data

Results flagged for a closer look

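In 6 of the 80 groups of 4 libraries (40 members, KO and Het), 1 library stood apart on the log2 CPM scale, its gap to the nearest other library, as a share of the group's range, passing the 95% critical value of Dixon's test. Chance gives about 1 in 20 such groups. KO replicate 8 was the one apart, and the lowest, for Stmn3 (gap 0.962 of the range), Elavl4 (0.915) and Celf3 (0.895). KO replicate 17 was apart and lowest for Nlgn1 (0.859). Het replicate 6 was apart and highest for Nlgn1 (0.856), and apart and lowest for Elavl2 (0.939).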

How the results depend on the processing

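No paired analysis was possible because the replicate numbers are not shared between KO and Het. The median log2 fold change of the members stayed between -0.29 and -0.15 under every alternative run. The count of members called lower, 0 in edgeR, was 4 with DESeq2, 4 with limma-voom and quality weights, 3 with the mesenchyme covariate and 1 with the filter of 2 CPM in 4 libraries, and ran from 0 to 1 with each library left out. It was 0 with median-ratio scaling, total counts, no filter, the Y-linked covariate and the Schwann covariate. In that order, these fits called 0.666%, 0.531%, 0.549%, 0.156% and 0.34% of all genes lower. With single libraries left out, between 0.18% and 1.31% of all genes were called lower. A count of 0 is near these shares. Depth limits most the 19 members under 10 CPM.

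Of 710 gene values under an alternative, 55 changed sign, in 15 genes, all with an edgeR adjusted p above 0.6; the cause was not tested. With limma-voom the log2 fold change was -0.71 for Stmn2, 0.0107 for Stmn3, 0.0591 for Kif1a, 0.47 for Nefh, -0.18 for Elavl2, 0.0605 for Celf3 and 0.0170 for Uchl1. With the mesenchyme covariate it was -0.25 for Stmn2, 0.0953 for Kif1a, 0.0419 for Celf3 and -0.0194 for L1cam. With the Y-linked covariate it was -1.02 for Stmn2, 0.12 for Kif1a, 0.24 for Nefh, -0.22 for Elavl2, 0.15 for Celf3, -0.26 for Nrxn3 and -0.27 for Nlgn1. With total counts it was 0.0220 for Kif1a, 0.0255 for Nefh and 0.0282 for Celf5. For Elavl2 it was -0.00821 without a filter and -0.0189 with the Schwann covariate.

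With each library left out, the log2 fold change ran from -0.65 to 1.59 for Stmn2, -0.35 to 0.0762 for Stmn3, -0.20 to 0.14 for Kif1a, -0.31 to 0.23 for Nefh and -0.22 to 0.12 for Elavl2. It ran from -0.0480 to 0.31 for Elavl4, -0.25 to 0.17 for Celf3, -0.53 to 0.33 for Celf5, -0.81 to 0.21 for Celf6 and -0.55 to 0.21 for Nova1. It ran from -0.00425 to 0.16 for Rbfox2, -0.10 to 0.66 for L1cam, -0.0516 to 0.96 for Nlgn1 and -0.31 to 0.0899 for Uchl1.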

Other observations

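Among the neuron markers used to check the sort, 2 genes stood apart by library and went opposite ways, and both were picked out after their values were seen. Chrna3, a subunit of the ganglionic nicotinic acetylcholine receptor, was at 3.13, 1.99, 8.07 and 9.25 CPM in KO libraries, against 1.08, 0.618, 0.442 and 0.608 CPM in Het libraries. Every KO library lay above every Het library, with a log2 fold change of 3.01 (edgeR adjusted p = 0.0640, and 0.0322 without KO replicate 8). Th, tyrosine hydroxylase, the first enzyme of catecholamine synthesis, was at 6.63, 5.66, 10.4 and 7.64 CPM in KO libraries, against 12.4, 12.1, 17.7 and 25.9 CPM in Het libraries. Every KO library lay below every Het library, with a log2 fold change of -1.16 (edgeR adjusted p = 0.181).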
